A study of Mus musculus with 8 samples.

Results

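Monocyte attractants and growth factors were followed as a set of 10 genes, taken by symbol from the 32285 genes counted in each library. The set holds 5 chemokine ligands (Ccl2, Ccl7, Ccl8, Ccl12 and Ccl24), the chemokine receptors Ccr2 and Cx3cr1, the growth factors Csf1 and Csf2, and the growth factor receptor Csf1r. No measured value entered the choice of these symbols. Single-cell RNA sequencing counted unique molecular identifiers (UMIs, 1 per captured transcript) in viable cells sorted from suspensions of mouse tongue epithelium, 15 days after transgene induction, in 8 libraries. All mice carried Krt14-CreERT, a tamoxifen-inducible Cre driven by a basal keratin promoter, and LSL-rtTA, which lets doxycycline switch on tetracycline-responsive transgenes in recombined cells. By the study's methods they also carried an H2B-GFP reporter, received tamoxifen into the tongue and doxycycline in the chow, and were adult littermates balanced for age and sex. Group N had no further transgene, group E had tetON_E6-E7 (the papillomavirus oncogenes E6 and E7), group Y had tetON_YAP1S127A (a YAP that escapes inhibitory phosphorylation), and group EY had both. Each group had 2 libraries, named here N1 and N2, E1 and E2, Y1 and Y2, and EY1 and EY2, and the title of N2 carried more than 1 animal number, so that library may pool animals. Where 2 values are given for a group, the first is that of replicate 1. By design, expression of the transgenes is restricted to Krt14-expressing epithelium and its descendants, so myeloid cells and T cells were not themselves targeted.

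Monocytes leave the blood along gradients of CCR2 ligands. Ccl2, Ccl7 and Ccl12 encode such ligands, Ccl8 encodes a monocyte chemoattractant protein whose mouse form acts mainly through CCR8, and Ccl24 (eotaxin-2) encodes a CCR3 ligand that attracts eosinophils. CX3CR1 binds fractalkine and marks patrolling monocytes and many resident macrophages. CSF1 and its receptor CSF1R sustain macrophages, whereas CSF2 (GM-CSF), made mostly by activated lymphocytes, acts on granulocytes, monocytes and dendritic cells.

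In the annotation used here (mouse GRCm38, GENCODE vM21) all members are protein-coding, and 4 chemokine genes lie in tandem on the forward strand of chromosome 11: Ccl2 at chr11:82035571-82037453, Ccl7 at chr11:82045712-82047525, Ccl12 at chr11:82101845-82103400 and Ccl8 at chr11:82115185-82116799. The reverse strand of the same chromosome carries Csf2 at chr11:54247271-54249667. Cx3cr1 (chr9:119901616-120069879, reverse strand) and Ccr2 (chr9:124101950-124113557, forward strand) share chromosome 9. Csf1 lies at chr3:107741048-107760469 and Ccl24 at chr5:135569937-135573049, both on the reverse strand.

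Promoter sequence of the RefSeq annotation (GRCm38.p6) was matched for 6 of the 10 members and is shown for 4 of them. Csf1, Cx3cr1 and Ccl8 passed a test of active YAP below, and Csf2 is the growth factor whose UMIs were held mostly by T cells. Each sequence is the 250 bases upstream of the RefSeq start, written 5′ to 3′ on the strand of the gene, at chr3:107760470-107760719 for Csf1, chr9:120068297-120068546 for Cx3cr1, chr11:82114935-82115184 for Ccl8 and chr11:54249900-54250149 for Csf2. Capitals mark matches, on either strand, to a TEAD motif (GGAATG, the site of the DNA-binding partners of YAP), an AP-1 motif (TGANTCA) or an NF-kB motif (GGGA, any base, then TTTCC).
Csf1: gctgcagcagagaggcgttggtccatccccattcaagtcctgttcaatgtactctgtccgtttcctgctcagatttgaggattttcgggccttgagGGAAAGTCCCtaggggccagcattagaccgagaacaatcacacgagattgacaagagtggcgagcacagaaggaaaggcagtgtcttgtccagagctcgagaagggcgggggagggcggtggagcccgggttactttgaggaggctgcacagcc
Cx3cr1: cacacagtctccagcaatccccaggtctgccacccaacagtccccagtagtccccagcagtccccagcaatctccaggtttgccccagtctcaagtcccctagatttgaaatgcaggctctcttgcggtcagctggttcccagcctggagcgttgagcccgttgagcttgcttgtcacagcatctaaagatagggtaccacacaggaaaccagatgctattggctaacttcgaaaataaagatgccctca
Ccl8: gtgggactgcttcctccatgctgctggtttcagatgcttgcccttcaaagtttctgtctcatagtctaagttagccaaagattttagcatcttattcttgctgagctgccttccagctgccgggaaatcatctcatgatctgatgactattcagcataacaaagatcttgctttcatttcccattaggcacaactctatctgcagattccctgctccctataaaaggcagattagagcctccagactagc
Csf2: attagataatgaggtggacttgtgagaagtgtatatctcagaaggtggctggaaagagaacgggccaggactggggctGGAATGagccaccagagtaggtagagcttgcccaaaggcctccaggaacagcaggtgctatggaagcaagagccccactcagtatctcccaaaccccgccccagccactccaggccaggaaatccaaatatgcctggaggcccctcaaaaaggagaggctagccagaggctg
The Csf1 window held 1 match to the NF-kB letters, beginning at position -154 from the start, and 0.356% of 32851 mouse promoters of the same length held one. The Csf2 window held 1 match to the TEAD letters, at -172, as did 12.6% of all promoters. No match to any of the 3 motifs was found in the windows of Cx3cr1, Ccl8, Ccl12 and Ccr2, and the AP-1 letters occurred in 6.75% of all promoters. A match is a string of letters and was not tested as a binding site.

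Of 42550 barcodes, 25199 passed the limits on genes, UMIs and mitochondrial reads, with 1520 to 5407 per library, and the libraries held between 46483469 and 102427359 UMIs. Of the distinct barcodes, 235 occurred in more than 1 library, with 2 to 19 shared by any pair. Yap1 itself, a check of the labels, was at 32.5 to 48.1 CPM (the gene's UMIs per 1000000 UMIs of the class) in epithelial cells of the 4 libraries without the YAP transgene and at 169.9 to 462 CPM in those with it. Epithelial cells numbered 3387 and 382 in N, 3967 and 535 in E, 1263 and 1011 in Y and 90 and 2019 in EY. Epithelial libraries stood apart in composition: a cluster led by Crct1 and Klk12 held 1957 of the cells of EY2 and 42 of those of EY1. In addition, 44.4% of the epithelial branch of EY1 fell in an unnamed cluster that was left out of the epithelial class, against 2.10 to 7.38% in the other libraries. Myeloid cells with a Lyz2 UMI numbered 118 to 1550 per library, the monocyte- or macrophage-like class 94 to 1359, and T cells with a Cd3e UMI 181 to 1891.

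Over the 8 libraries, the members fell into groups by the cells that held them. The monocyte- or macrophage-like class held 97.9% of all Ccl24 UMIs, 95.4% of those of Ccl12, 87.9% of those of Csf1r and 60.7% of those of Ccl8, although it made up 14.1% of the kept cells. Epithelial cells, at 50.2% of the kept cells, held 53.8% of Ccl2 UMIs, and the monocyte- or macrophage-like class held another 32.8%. Ccl7 was spread over the monocyte- or macrophage-like (41.7%), fibroblast-like (32.8%) and epithelial (21.9%) classes, and the fibroblast-like class also held 17.9% of Ccl8 UMIs from only 108 cells. T cells were the main holders of Csf2 (67.2%), Ccr2 (48.5%) and Csf1 (39.4%), and the next shares were in NK-like cells for Csf2 (22.6%), in the monocyte- or macrophage-like class for Ccr2 (37.8%) and in neutrophil-like cells for Csf1 (26.4%). Cx3cr1 UMIs were split between the monocyte- or macrophage-like class (43.2%) and T cells (39.7%).

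**Figure D1:**
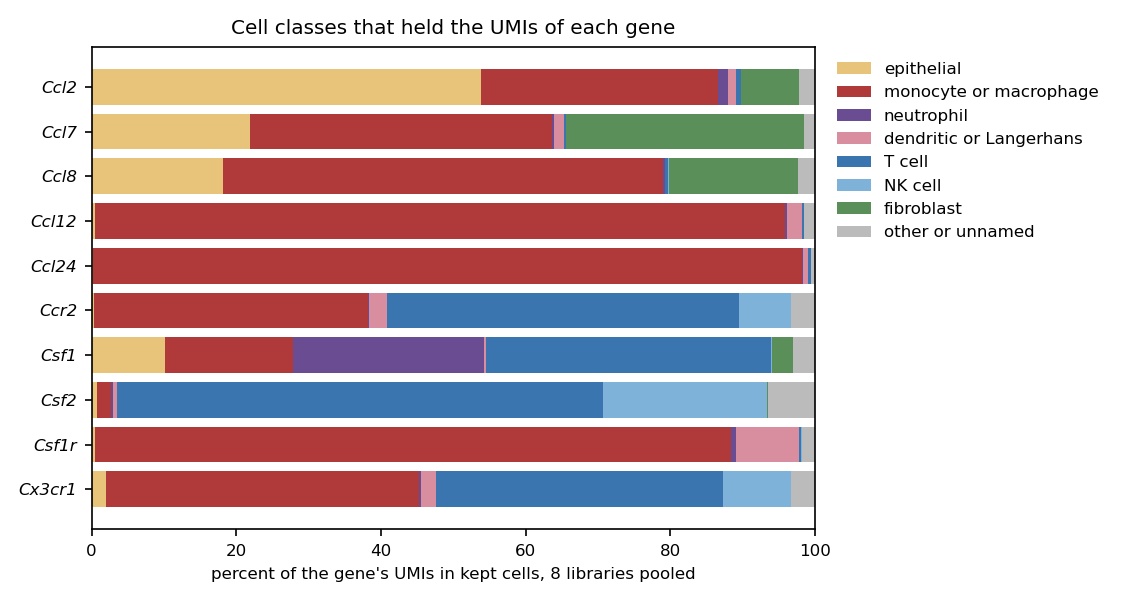
Share of each gene's UMIs held by each cell class, in percent on the horizontal axis, over the kept cells of the 8 libraries pooled. Ccl12, Ccl24 and Csf1r bars are filled almost wholly by the monocyte- or macrophage-like class (95.4, 97.9 and 87.9%), whereas Csf1 and Csf2 bars are led by T cells (39.4 and 67.2%).

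Shares depend on how many cells of a type were captured, so levels were also compared as CPM within each class, averaged over libraries with at least 20 cells of the class. The 6 classes compared were epithelial, monocyte- or macrophage-like, neutrophil-like, dendritic- or Langerhans-like, T and NK-like cells. The fibroblast-like class was not compared, although its few cells held sizeable shares of Ccl7 and Ccl8 UMIs, so no order against it is given. By this measure 7 of the 10 members were highest in the monocyte- or macrophage-like class among the 6 classes compared. The exceptions were Ccr2 (T cells), Csf1 (neutrophil-like cells) and Csf2 (NK-like cells). Ccl2 averaged 152 CPM in the monocyte- or macrophage-like class and 29.4 CPM in epithelial cells, and the first exceeded the second in 8 of 8 libraries. By Ccl2 UMIs per cell, epithelial cells were the higher in Y1 (0.788 against 0.591) and EY2 (1.04 against 0.348), and the lower in the other libraries. Csf1r averaged 463 CPM in the monocyte- or macrophage-like class and 220.2 CPM in dendritic- or Langerhans-like cells, with this CPM order in 8 of 8 libraries. Csf1 averaged 447 CPM in neutrophil-like cells, 65.8 CPM in T cells and 19.9 CPM in the monocyte- or macrophage-like class; neutrophil-like cells were above T cells in 4 of 5 libraries, and T cells were above the monocyte- or macrophage-like class in 8 of 8. The order was not fixed for Ccr2, where T cells (188 CPM) exceeded the monocyte- or macrophage-like class (155 CPM) in 7 of 8 libraries, nor for Cx3cr1, where the monocyte- or macrophage-like class (42.7 CPM) exceeded T cells (22.7 CPM) in 5 of 8. Csf2 averaged 79.1 CPM in NK-like cells and 35.2 CPM in T cells, with NK-like cells above T cells in 5 of 7 libraries. Classes were built from the same transcripts, so these orders are descriptions and carry no test.

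The genes whose levels most resembled those of a member over 57 sums (1 per library and class, 13440 genes, Pearson's r of log2 CPM) were mostly genes of the same cells. Csf1r was closest to Clec4a1 (r = 0.96), Adgre1 (0.95) and C1qb (0.93), and Ccl12 to C3ar1 (0.91). Ccl7 was closest to Lpl (0.90) and then to Ccl8 (0.88) of the same gene cluster, which in turn was closest to C1ra (0.89). Csf2 was nearest to Ccdc184 (0.93) and then A430088P11Rik (0.89) and Ccl1 (0.88), and Ccr2 was nearest to Cd48 (0.90) and Il7r (0.89). Lower values were reached for Ccl2 (Tgfbi, 0.80), Csf1 (Irak3, 0.78) and Cx3cr1 (Ms4a4c, 0.82). The sums share libraries and classes, so these values only describe co-occurrence.

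In monocyte- or macrophage-like cells, libraries with active YAP had less Cx3cr1 and more Csf1. Cx3cr1 was at 74.0 and 100.9 CPM in N, 58.2 and 53.7 in E, 10.9 and 15.9 in Y and 10.6 and 17.5 in EY. The 4 libraries with the YAP transgene were all below the 4 without it. Over both backgrounds the log2 fold change with YAP (the YAP effect, from an additive model of both transgenes) was -2.23 (SE 0.28, edgeR quasi-likelihood adjusted p = 0.0156, n = 4 against 4 libraries). Between EY and N the log2 fold change was -2.40 (SE 0.31, edgeR adjusted p = 0.0124). These rested on 57 to 286 UMIs in each library without YAP and 42 to 161 in each with it, and a single cell gave 48 of 161 in Y1 and 49 of 95 in EY1.

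The share of monocyte- or macrophage-like cells with a Cx3cr1 UMI followed the same order. It was 28.7 and 42.2% in N and 18.7 and 31.9% in E, against 3.38 and 9.68% in Y and 3.28 and 2.25% in EY. After every cell was thinned to 2000 UMIs it was 8.56 to 17.5% without YAP and 0.94 to 3.23% with it. In epithelial cells, which should lack the gene, the unthinned share was at most 0.561% in any library.

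Csf1, which encodes the growth factor that these cells depend on, moved the other way. It was at 10.4 and 12 CPM in N, 8.31 and 13.9 in E, 31.1 and 26.9 in Y and 38.9 and 17.9 in EY. The YAP effect on the log2 scale was 1.56 (SE 0.28, edgeR adjusted p = 0.0398), and that of EY against N was 1.68 (SE 0.40, edgeR adjusted p = 0.0424). Again the 2 sets of 4 libraries did not overlap. These were 2 of the 9 members tested, where 1.15% of all 9777 genes tested were called for the YAP effect and 7.1% for EY against N.

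**Figure D2:**
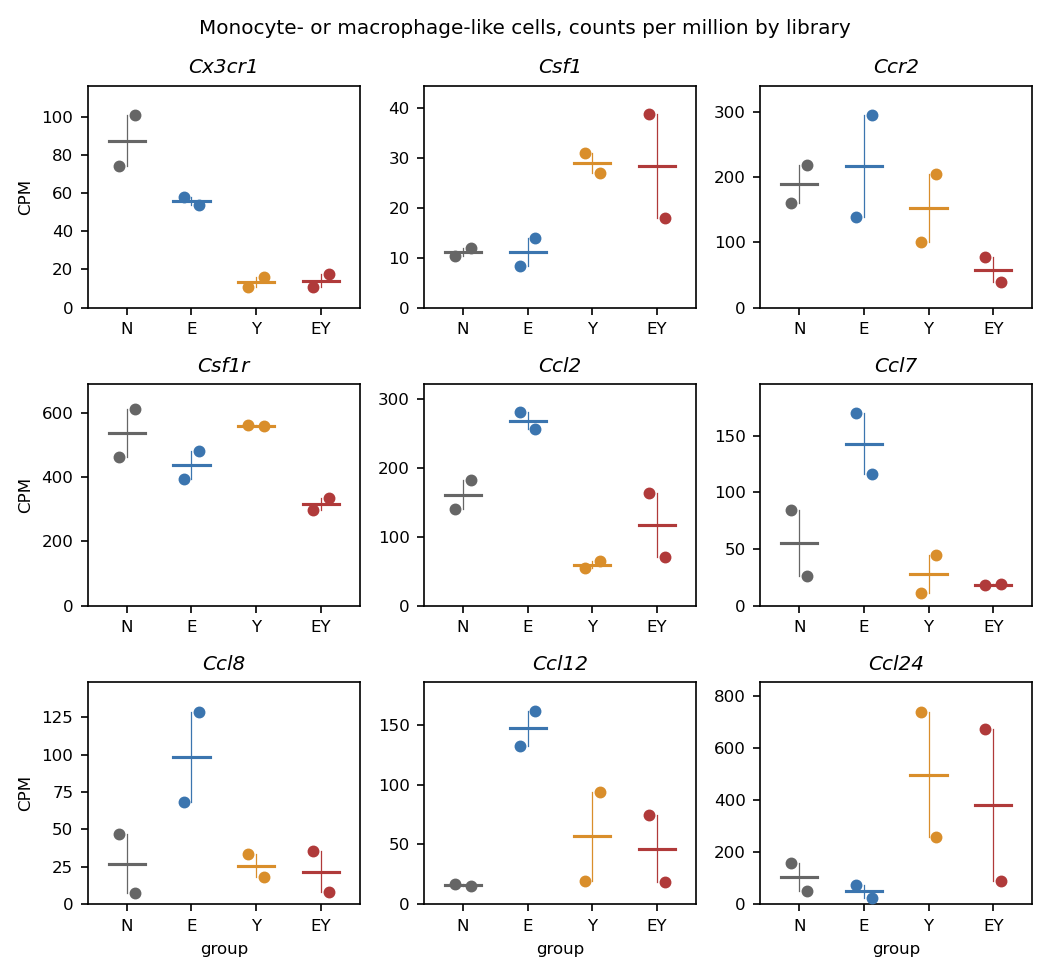
CPM of 9 members in monocyte- or macrophage-like cells (vertical axes, each from 0), 1 point per library, by group; the horizontal bar is the group mean and the thin line joins the 2 libraries. Cx3cr1 lies at or below 17.5 CPM in all 4 Y and EY libraries and at or above 53.7 CPM in all 4 N and E libraries.

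The makeup of this class differed between groups, and the values that moved with it were as follows. A cluster led by Saa3 and Nos2 made up 61.7% of the class in EY1 and 55.1% in EY2. It made up 8.24% in Y1 and at most 2.59% in the other 5 libraries. The rest was a cluster called C1q-led here as a label only. Of its 10 leading genes, Gm15056 and C3ar1 came first and C1qc last. The summed level of 12 monocyte or macrophage markers was 21411 to 29348 CPM in the libraries without YAP and 12235 to 18602 CPM in those with it. A list of 10 neutrophil markers, all detected, summed to 394 to 588 CPM without YAP and to 887 to 2359 CPM with it. When only the C1q-led cluster was fitted, an alternative chosen after seeing the data, 2.11% of 9532 genes were called for the YAP effect. There Cx3cr1 was again lower (log2 fold change -2.34, edgeR adjusted p = 0.0187) and Csf1 higher (1.32, edgeR adjusted p = 0.0460). The Csf1 libraries overlapped in this cluster, unlike in the whole class. Csf1 was at 8.34 to 14.3 CPM without YAP, 32.0 and 27.4 in Y, and 32.3 and 12.9 in EY, with 13 UMIs in EY2. For EY against N in the C1q-led cluster, with 1.04% of genes called, Cx3cr1 was lower (-2.55, edgeR adjusted p = 0.0447), whereas Csf1 did not pass (1.22, edgeR adjusted p = 0.178). Neutrophil-like cells, which averaged the most Csf1 of the 6 classes compared, were at 541 CPM in N2, 1383 in E2, 168 in Y1, 106 in EY1 and 35.3 in EY2; the part of neutrophil RNA in the Csf1 result was not tested.

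Neither call was independent of single libraries. Cx3cr1 kept its direction under all 15 alternatives for the YAP effect (-1.99 to -2.42), and the call was lost in 2 of them, without N1 (edgeR adjusted p = 0.0664) and without EY1 (0.0544). The EY against N call was lost without N1 (0.0730) and without N2 (0.0689). The Csf1 call for the YAP effect held in 9 of 15 alternatives, with log2 fold changes of 1.24 to 1.75. It was lost without N1, E1, E2, Y1 or EY1 (edgeR adjusted p from 0.0683 without EY1 to 0.152 without E2) and with a minimum of 200 genes per cell (0.0511). For EY against N, Csf1 held in 7 of 15. It was lost without N1, N2, E1 or E2 (edgeR adjusted p from 0.0613 to 0.197), and was 0.98 without EY1 (0.185).

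Among the ligands in monocyte- or macrophage-like cells, none passed the test over the whole class. Ccl2 was at 140 and 182 CPM in N, 281 and 256 in E, 54.5 and 65.3 in Y and 164 and 70.7 in EY. EY1 lay above N1, so the sets overlapped, and the YAP effect did not pass (log2 fold change -1.12, SE 0.27, edgeR adjusted p = 0.0707). In the C1q-led cluster alone Ccl2 was at 140 and 172 CPM in N, 282 and 263 in E, 37.5 and 56.0 in Y and 84.8 and 126 in EY. There the sets did not overlap and the YAP effect was called (-1.49, edgeR adjusted p = 0.0141).

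Ccl7 in the same class was at 84.4 and 26.5 CPM in N, 170 and 116 in E, 11.1 and 44.6 in Y and 18.3 and 19.1 in EY. Both EY libraries lay below both N libraries, without a call (log2 fold change -1.12, SE 0.70, edgeR adjusted p = 0.351). Ccl12 was at 16.9 and 15.2 CPM in N, 133 and 162 in E, 19.5 and 94.4 in Y and 74.5 and 18.3 in EY. EY1 lay well above both N libraries and EY2 just above them (log2 fold change 1.93, SE 0.84, edgeR adjusted p = 0.188), and its E libraries were higher than those of every other group. Ccl8 was at 46.7 and 7.41 CPM in N, 68.3 and 129 in E, 33.4 and 17.9 in Y and 35.3 and 7.90 in EY, with 253 UMIs in a single cell of Y1. Ccl8 groups overlapped in both main comparisons.

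Ccl24 had the widest span of the set in this class. It was at 156 and 48.4 CPM in N, 74.2 and 24.3 in E, 738 and 256 in Y and 672 and 89.0 in EY. EY2 fell inside the range of the libraries without YAP, and the YAP effect (log2 fold change 2.83, SE 0.73, edgeR adjusted p = 0.0783) did not pass. In cells, the share with a Ccl24 UMI was 1.95 to 16.0% without YAP and 12.1 to 40.2% with it, and 1 cell of EY1 held 586 of that library's 6014 UMIs.

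The receptors Ccr2 and Csf1r had their lowest values in EY. Ccr2 was at 161 and 219 CPM in N, 139 and 296 in E, 101 and 205 in Y and 77.2 and 38.7 in EY. EY libraries were the lowest of the 8, but EY against N did not pass (log2 fold change -1.38, SE 0.47, edgeR adjusted p = 0.107). Csf1r was at 463 and 610 CPM in N, 395 and 483 in E, 560 and 559 in Y and 297 and 336 in EY. Both EY libraries lay below every other library (EY against N -0.44, SE 0.21, edgeR adjusted p = 0.222), while in the C1q-led cluster alone EY1 and EY2 were at 468 and 496 CPM and the log2 fold change was -0.05. Csf2 was at 2.71 CPM in Y1 and without a UMI in the other 7 libraries of this class. The E6-E7 effect called none of the 9 members tested in this class, where 0.0102% of genes were called, nor any in all Lyz2-positive myeloid cells, where 0.0094% were.

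Over all Lyz2-positive myeloid cells, the class that also takes in neutrophil-like and dendritic-like cells, Cx3cr1 was the member called. It was at 55.4 and 71.3 CPM in N, 64.0 and 45.6 in E, 9.67 and 14.6 in Y and 7.0 and 9.90 in EY. All 4 libraries with YAP were below all 4 without it, with a YAP effect of -2.24 (SE 0.20, edgeR adjusted p = 0.0115) and -2.37 in EY relative to N (SE 0.29, adjusted p from edgeR = 0.0122). Each was 1 of 9 members tested, beside 2.41% and 14.1% of all 10637 genes. Without N1 the adjusted p rose to 0.0547 for the YAP effect and 0.0672 for EY against N; it was 0.0508 and 0.0670 without EY1, and 0.0654 for EY against N without N2. In these suspensions fewer cells of a type and less RNA per cell cannot be told apart within a class sum. Neutrophil-like cells made up 0 to 30% of the Lyz2-positive cells of libraries without YAP and 2.28 to 45.0% of those with it, and the part of that shift in the myeloid values was not tested.

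Other members in Lyz2-positive myeloid cells did not pass. Ccl2 was at 118 and 128 CPM in N, 290 and 214 in E, 47.9 and 60.0 in Y and 107 and 51.7 in EY. The arms with and without YAP did not overlap, and the YAP effect was -1.07 (SE 0.24, edgeR adjusted p = 0.0551). Ccr2 (EY against N -1.26, SE 0.45, edgeR adjusted p = 0.0945), Csf1r (-0.47, SE 0.20, 0.141) and Ccl7 (-0.97, SE 0.75, 0.396) were lower by value in both EY libraries than in both N libraries. Ccl12 (2.12, SE 0.84, edgeR adjusted p = 0.122) and Csf1 (2.12, SE 1.08, 0.207) were higher by value. The median log2 fold change of the 9 tested members was -0.76 for the YAP effect and 0.00 for EY against N.

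In epithelial cells, the class in which transgene expression was targeted, Ccl8 was the member called. The class was not selected for cells expressing a transgene. Ccl8 was at 0.305 and 0 CPM in N, 0.478 and 0.251 in E, 2.78 and 0.296 in Y and 1.58 and 7.35 in EY. Y2 lay inside the range of the libraries without YAP. Ccl8 could pass the filter on low counts only through libraries with YAP, where it was mostly higher, so its entry to the test depended on that arm. The YAP effect was 3.34 (SE 0.81, edgeR adjusted p = 0.0395) and EY against N was 4.56 (SE 1.22, edgeR adjusted p = 0.0445). Ccl8 was 1 of 7 members tested in each, and the background was 9.59% of 13518 genes called for the YAP effect and 15.6% for EY against N.

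Few cells carried that result. Ccl8 UMIs numbered 15 and 0 in N, 26 and 3 in E, 68 and 6 in Y and 3 and 275 in EY. In Y1, 54 of the 68 were in 1 cell, and in EY1 all 3 were in 1 cell, whereas in EY2 they were spread over 132 cells, 6.54% of its epithelial cells (95% Clopper-Pearson interval 5.50 to 7.71%, counting error only). Pooled over libraries, 352 UMIs with YAP stood against 44 without it, a ratio per class UMI of 11.8 (8.60 to 16.5, counting error only). Without EY2 the EY against N value was 2.71 (edgeR adjusted p = 0.521) and the YAP effect 2.53 (0.159). The YAP call was lost in 7 of 8 leave-1-out fits, all but the one without Y2, with edgeR adjusted p from 0.0535 without EY1 to 0.159. With gland-like and unnamed clusters added it was 0.0729 for the YAP effect and 0.0747 for EY against N, and with epithelial cells holding a Ptprc, Lyz2 or Cd3e UMI removed the YAP effect was 2.49 (0.0849). The EY against N call was also lost without N1 (9.95, edgeR adjusted p = 0.159), N2 (0.147), E1 (0.0629) or E2 (0.0628). Markers of other cells in these epithelial sums moved as follows: 8 pan-immune markers, all detected, summed to 7.40 to 16.3 CPM without YAP and to 15.3 to 51.5 CPM with it. The summed level of 12 monocyte or macrophage markers was 401 to 552 CPM without YAP and 127 to 487 CPM with it, and that of 7 fibroblast markers was 746 to 1305 and 27.0 to 820 CPM, lowest in EY2 in both, with Mrc1 at 0 in N and Adgre1 at 0 in EY; their part in the Ccl8 result was not tested.

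Ccl2 in epithelial cells was at 22.4 and 6.23 CPM in N, 35.7 and 20.2 in E, 40.7 and 27.5 in Y and 25.8 and 56.3 in EY. The Y and EY libraries all lay above both N libraries, and E1 lay among them. Neither Y against N (log2 fold change 1.20, edgeR adjusted p = 0.481) nor EY against N (1.58, SE 0.61, edgeR adjusted p = 0.108) passed. The unthinned share of epithelial cells with a Ccl2 UMI was 2.88 to 9.02% without YAP and 11.7 to 23.6% with it. With every cell thinned as for Cx3cr1 above, the share was 1.05 to 3.58% without YAP and 2.87 to 7.03% with it. Y2 then lay below N1 (2.92%) and E1, so the thinned shares overlapped.

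Composition moved with these Ccl2 values. In the basal cluster led by Krt15, which held 1766 cells in N1 and 15 in EY2, Ccl2 was at 28.5 and 8.98 CPM in N, 49.9 and 20.5 in E, 76.0 and 27.0 in Y and 36.0 and 40.4 in EY. In the Crct1- and Klk12-led cluster it was at 170 CPM in E1 (38 cells), 144 and 43.4 in Y, and 29.8 and 57.0 in EY. Within either cluster the libraries with and without YAP overlapped or lacked N cells for a comparison. Ccl8 in the Crct1- and Klk12-led cluster was at 1.22 CPM in E1, 34.8 and 0.529 in Y, and 3.73 and 7.45 in EY. In Y1, 54 of its 65 UMIs there were in 1 cell.

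Ccl7, encoded beside Ccl2, followed it at a lower count. It was at 1.24 and 0.479 CPM in N, 3.46 and 1.09 in E, 2.90 and 5.27 in Y and 2.63 and 4.87 in EY. All Y and EY libraries were above both N libraries (Y against N 2.06, edgeR adjusted p = 0.238; EY against N 2.15, SE 0.68, edgeR adjusted p = 0.0659), with E1 in their midst. Csf1 was at 2.36 and 1.44 CPM in N, 3.02 and 5.53 in E, 3.11 and 1.92 in Y and 2.63 and 3.23 in EY, so E (1.02, edgeR adjusted p = 1) and EY (0.68, SE 0.47, 0.326) lay above N without a call. The other members were near absent: Ccl24 reached 2.10 CPM, Csf1r 1.47, Cx3cr1 0.67, Ccr2 0.48, Csf2 0.45 and Ccl12 0.19. Of the 13518 genes tested, 0.451% were called for Y against N, 0.266% for E against N, 0.51% for the E6-E7 effect and 0.0148% for the interaction, and no member was among them.

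**Figure D3:**
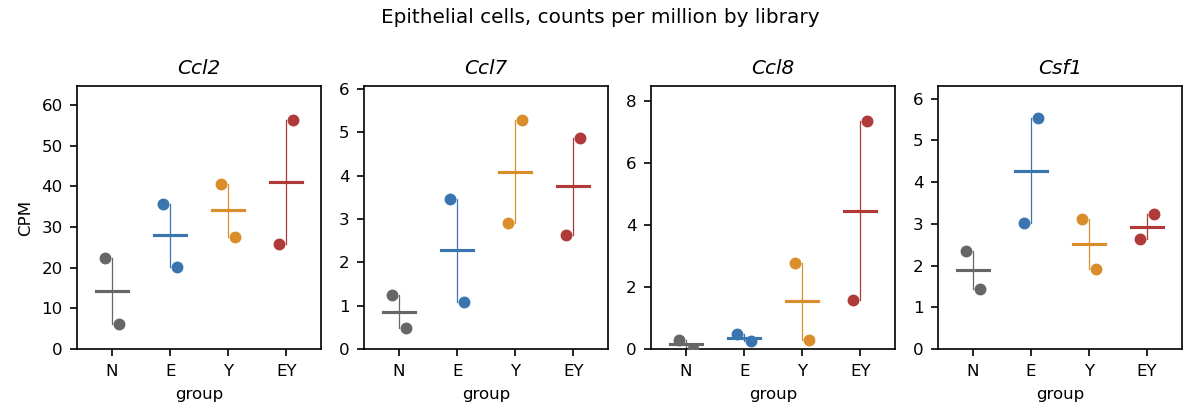
CPM of members in epithelial cells (vertical axes, each from 0), 1 point per library, by group; the horizontal bar is the group mean and the thin line joins the 2 libraries. Ccl2 lies at or above 25.8 CPM in the 4 Y and EY libraries and at or below 22.4 CPM in both N libraries, and the highest Ccl8 point is EY2 at 7.35 CPM.

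In Cd3e-positive T cells, 5 members passed the filter on low counts (Csf1, Csf2, Ccr2, Cx3cr1 and Ccl2) and Ccl2 was called. Ccl2 could pass that filter only through the libraries with YAP, where it was higher, so its entry to the test depended on that arm. Ccl2 was at 0 and 0.231 CPM in N, 0 and 0.215 in E, 3.72 and 5.83 in Y and 4.48 and 20.2 in EY. The libraries with YAP were all above those without it, with a YAP effect of 5.21 (SE 0.82, edgeR adjusted p = 0.0478), when 0.279% of 9669 genes were called. In UMIs these were 0, 1, 0 and 1 against 45, 13, 9 and 15, and the ratio of the pooled rates was 26.6 (7.12 to 223, counting error only). Because the arm without YAP rested on 2 UMIs, the fitted fold change depends on the fit's prior. The call was lost without N1, N2, E1, E2, Y1 or EY2 (edgeR adjusted p up to 0.255, without E2), with no upper limits per cell (0.0742) and with T cells taken without the Cd3e gate (0.0521).

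Values of RNA from other cells moved with the T-cell Ccl2 result. Lyz2, a myeloid gene, was at 2.52 to 11.3 CPM in the T cells of libraries without YAP and at 18.9 to 67.7 CPM in those with it. The 12 monocyte or macrophage markers summed to 407 to 1315 CPM without YAP, with Adgre1 at 0, and 424 to 1071 CPM with it, so this list overlapped. Neutrophil markers (10) summed to 59.0 to 96.7 CPM without YAP, with Ly6g at 0, and to 112.5 to 350.2 CPM with it, and dendritic or Langerhans markers (12) to 77.9 to 93.7 and 135.9 to 198.8 CPM, so both of these lists separated the arms. Yap1 was at 0 to 2.57 CPM in T cells without the transgene and at 3.49 to 24.2 CPM with it. The share of T cells with a Ccl2 UMI was 0 to 0.188% without YAP and 1.07 to 7.18% with it, and the part of RNA from other cells in it was not tested.

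Csf2, the growth factor whose UMIs were held mostly by T cells, was at 16.0 and 3.01 CPM in N, 28.4 and 18.7 in E, 76.9 and 66.8 in Y and 18.9 and 52.5 in EY in T cells. Y1, Y2 and EY2 were above every library without YAP, and EY1 fell among those. The YAP effect (2.01, SE 0.62, edgeR adjusted p = 0.278) and EY against N (2.30, SE 0.71, edgeR adjusted p = 0.326) did not pass. In Y1, 154 T cells (8.14%) held its 930 UMIs, while in Y2 the 10 cells with the most held 94.0% of 149. Of the 6 promoters available, that of Csf2 was the one with a match to the TEAD letters, which 12.6% of all promoters held. A link between that match and these levels was not tested.

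Ccr2 in T cells was at 179 and 281 CPM in N, 213 and 223 in E, 166 and 244 in Y and 124 and 78.0 in EY. As in the myeloid classes, both EY libraries were the lowest (EY against N -1.07, SE 0.31, edgeR adjusted p = 0.302). Csf1 was at 84.9 and 84.4 CPM in N, 34.1 and 84.1 in E, 85.0 and 53.4 in Y and 57.8 and 43.1 in EY (EY against N -0.61, SE 0.41, edgeR adjusted p = 0.604). Cx3cr1 was at 16.8 and 30.5 CPM in N, 12.5 and 21.2 in E, 34.2 and 10.3 in Y and 33.4 and 22.9 in EY, with overlapping groups and a YAP effect of 0.37 (SE 0.40, edgeR adjusted p = 0.831). For EY against N in T cells edgeR called 0 of 9669 genes, with 1095 at an unadjusted p under 0.05, and DESeq2 called 1 member, Ccl2 (5.98, adjusted p = 0.0264). The E6-E7 effect called 0 genes with edgeR (526 at an unadjusted p under 0.05), and no member with DESeq2.

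**Figure D4:**
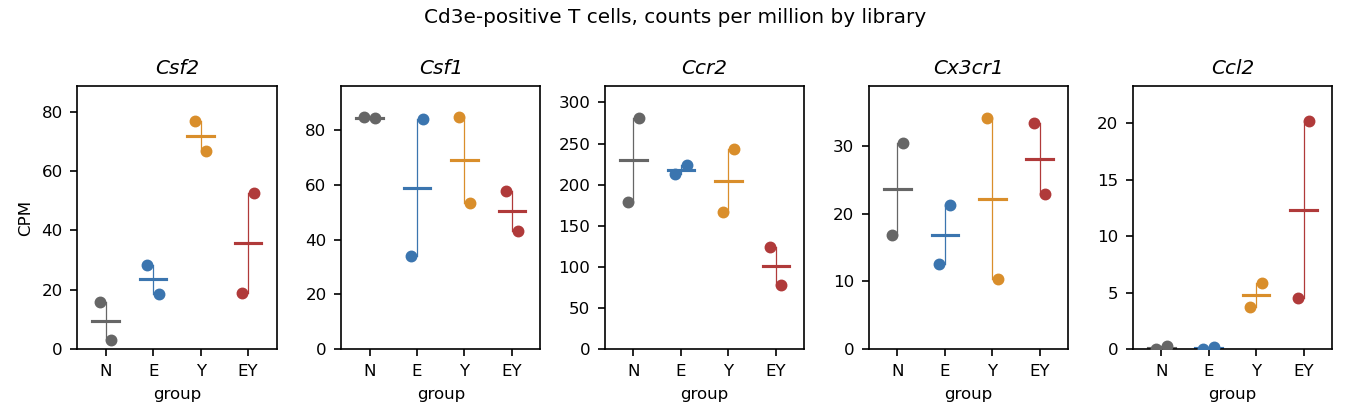
CPM of members in Cd3e-positive T cells (vertical axes, each from 0), 1 point per library, by group; the horizontal bar is the group mean and the thin line joins the 2 libraries. Ccl2 lies between 3.72 and 20.2 CPM in the Y and EY libraries and at or below 0.231 CPM in the N and E libraries.

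Set side by side, the YAP effects of the members differed in sign between classes by value. Ccl2 was 0.96 in epithelial cells, -1.12 in monocyte- or macrophage-like cells and 5.21 in T cells. Ccl8 was 3.34 in epithelial cells and -0.86 in monocyte- or macrophage-like cells, and Cx3cr1 was -2.23 in the latter and 0.37 in T cells. Differences between classes were not tested. In medians over the tested members the YAP effect was 1.05 in epithelial cells (7 members), -0.86 in monocyte- or macrophage-like cells (9 members) and 0.37 in T cells (5 members), where the medians over all genes tested were -0.01, -0.02 and 0.00. Ccl8 and Ccl24 in epithelial cells and Ccl2 in T cells could pass the filter on low counts only through libraries with YAP. The medians of these 2 classes therefore depended in part on which members could enter the test.

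**Figure D5:**
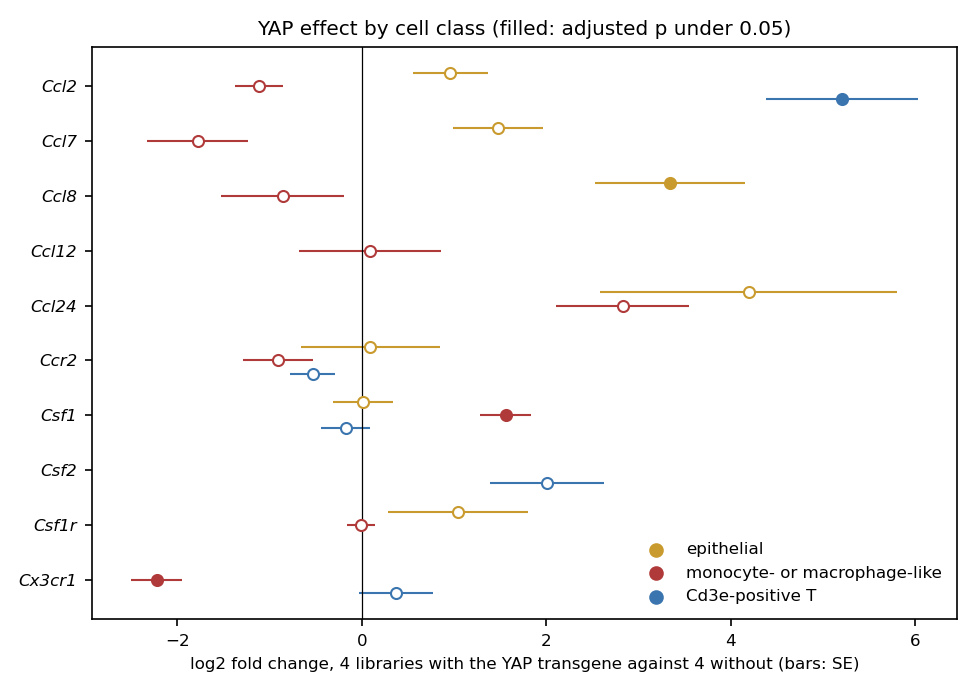
YAP effect of each tested member as a log2 fold change (horizontal axis) with its SE, by cell class; filled points passed an adjusted p of 0.05 and open points did not. The filled points are Ccl8 in epithelial cells (3.34), Cx3cr1 (-2.23) and Csf1 (1.56) in monocyte- or macrophage-like cells, and Ccl2 in T cells (5.21). Ccl2 in T cells and Ccl8 in epithelial cells could pass the filter on low counts only through libraries with YAP.

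Among 39 other genes of these pathways (further chemokines, growth factors, receptors, inducers and lineage regulators, a list drawn up with earlier results known), 30 were tested in epithelial cells. For EY against N, 7 rose, where 15.6% of all genes tested were called. These were Ccl5 (log2 fold change 3.73), Ccl11 (3.38), Spi1 (3.05), Irf8 (2.67) and Vegfa (2.06), with Csf3, the granulocyte growth factor, and Csf2rb, the shared receptor subunit for CSF2. No fold is given for the last pair, whose N libraries were at or near 0: Csf3 had 0 and 0 UMIs in N and 1 and 349 in EY, so that EY2 held nearly all of them, and Csf2rb had 2 and 0 UMIs in N and 1 and 17 in EY. For the YAP effect, with 9.59% of all genes called, 5 rose: Csf3, with the same concentration in EY2, Spi1 (2.45), Ccl11 (2.10), Vegfa (1.49) and Tnfaip3 (1.23). Csf3 and Csf2rb could pass the filter on low counts only through libraries with YAP, where they were higher, so their entry to the tests depended on that arm. Csf2rb, Spi1 and Irf8 are genes of blood cells, and the 8 pan-immune markers in the epithelial class summed to 7.40 to 16.3 CPM in N and to 20.5 to 51.5 CPM in EY. In Y that sum was 50.9 and 15.3 CPM. Spi1 was at 0.955 and 1.08 CPM in N, 1.88 and 1.17 in E, 2.82 and 8.38 in Y and 5.79 and 9.36 in EY. The part of RNA from immune cells in these rises was not tested.

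In monocyte- or macrophage-like cells 6 of the 30 genes of that list tested rose in EY against N and none fell by the same edgeR test, beside 7.1% of all genes called: Il1a (3.96), Ccl3 (2.46), Ccl4 (1.83), Il1b (1.32), Csf2rb (1.24) and Nfkbia (1.05). Il1a and Il1b encode interleukin-1, and Ccl3 and Ccl4 encode inflammatory chemokines. Csf2rb was also the gene of the list that rose with the YAP effect (1.30). In all Lyz2-positive myeloid cells 9 of 30 rose in EY against N, beside 14.1% of all genes called, among them Il1a (4.19), Ccl3 (2.59), Ccr1 (2.10) and Ccl4 (1.99). None of the 22 genes tested in T cells was called by edgeR for the YAP effect or EY against N.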

How the data were processed

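The authors aligned and counted 10x 3′ libraries with Cell Ranger against mm10, and deposited raw UMI counts per gene and barcode. Following the study's limits, barcodes with 1000 to 5500 genes were kept if they held no more than 30000 UMIs and no more than 7% of them mitochondrial. They were clustered with scanpy 1.11.5 (3000 variable genes, 30 components, 50 neighbours, Leiden resolution 0.3), first into immune and other cells, then within each. Clusters were named from marker lists, and the naming rule was adjusted after the marker tables had been viewed, to leave mixed clusters unnamed. Myeloid cells needed a Lyz2 UMI and T cells a Cd3e UMI. Scrublet called 125 doublets (0.4961% of kept cells), which was taken as a failed call, so no doublet was removed.

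UMIs were summed per library and class with at least 20 cells and tested in edgeR 4.0.16 (R 4.3.3) by the quasi-likelihood test with TMM factors (0.712 to 1.15), a filter on low counts, and Benjamini-Hochberg adjustment over all genes tested, at 0.05. The YAP and E6-E7 effects came from an additive model of both transgenes, and EY against N, Y against N, E against N and the interaction from a mean per group. With 2 libraries per group, which the study's methods describe as 2 mice per genotype although the N2 title carries more than 1 identifier, the p-values measure the spread between libraries. Levels are CPM of the class sum without TMM factors, so a CPM order can differ from a fitted sign. Cell shares have Clopper-Pearson 95% intervals, which cover counting error only. DESeq2 1.42.0 was an alternative. Of the counted features, 99.6% matched GENCODE vM21. In simulated sums, 79.4 to 89.3% of genes changed 4-fold were recovered for the additive effects and 32.7 to 61.1% for EY against N; for 2-fold changes the shares were 10.9 to 46.4% and 0 to 5.98%.

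All 10 members were named by rule. Their values per library are given where a class held at least 20 of their UMIs, and their tests where they were called or the compared libraries did not overlap in CPM; a few further tests were named after their values were seen. The members and the other gene lists were chosen with earlier results of these data known. The deposited files were used for every library, and no deposited table of comparisons was used. A result of the wider pathway list is not reported here.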

Additional observations from a re-analysis of the deposited data

Results flagged for a closer look

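In several cases both libraries or all 4 libraries of 1 arm moved one way in 1 cell class and the opposite way in another, and no test of the difference between classes was run. Ccl2 under the YAP effect was higher in Cd3e-positive T cells (log2 fold change 5.21) and lower in Lyz2-positive myeloid cells (-1.07), with no overlap between libraries with and without YAP in either class. Ccl7 in EY against N was higher in epithelial cells (2.15), and lower in Lyz2-positive myeloid cells (-0.97) and in monocyte- or macrophage-like cells (-1.12). Csf1 in EY against N was higher in epithelial cells (0.68), in Lyz2-positive myeloid cells (2.12) and in monocyte- or macrophage-like cells (1.68), and lower in T cells (-0.61). Of these values, Ccl2 in T cells and Csf1 in monocyte- or macrophage-like cells passed their own test within the class. Ccl2 could enter the T-cell test only through the libraries with YAP.

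Ccl2 in EY against N met the same description by CPM, with both EY libraries above both N libraries in epithelial cells and T cells and below them in Lyz2-positive myeloid cells. Its fitted log2 fold change in the myeloid cells was 0.00 after TMM scaling, so it was set apart from the results above, a choice made after its values were seen.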

How the results depend on the processing

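No paired analysis was possible because the labels give the groups no shared replicate numbers. Of 671 values under alternatives, 524 kept their direction and side of the threshold, or a count within 1.5 times. Of the others, 46 lost a call, 28 gained one, 3 reversed direction and 70 were counts that moved further. The number of members called moved as follows. With DESeq2 it was 3 for the YAP effect and 3 for EY against N in epithelial cells, 4, 1 and 2 for the YAP effect, the E6-E7 effect and EY against N in myeloid cells, 5 and 1 for the YAP and E6-E7 effects in monocyte- or macrophage-like cells, and 1 for EY against N in T cells. Without the filter on low counts it was 4, 2, 5, 1 and 3 in epithelial cells (YAP effect, E6-E7 effect, Y, E and EY against N), 6, 5 and 6 in myeloid cells, 7, 4 and 6 in monocyte- or macrophage-like cells (YAP effect, E6-E7 effect, EY against N), and 3 and 3 in T cells (YAP effect, EY against N). With at least 200 genes per cell it was 2 for EY against N in epithelial cells, and 1 in both comparisons in monocyte- or macrophage-like cells. Without upper limits per cell it was 4, 1 and 3 in epithelial cells (YAP effect, Y and EY against N), and no member was called for the YAP effect in T cells (0). With gland-like and unnamed clusters added it was 0 and 0 in epithelial cells (YAP effect, EY against N). With the other cell gate it was 0 for the YAP effect in epithelial cells and in T cells and 1 for EY against N in monocyte- or macrophage-like cells. In the C1q-led cluster, added after seeing the data, it was 1 for EY against N. The causes were not tested.

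Leaving out each library in turn gave 0 to 1 members called for the YAP effect and EY against N in epithelial cells and for the YAP effect in T cells. In myeloid cells and in monocyte- or macrophage-like cells the ranges were 0 to 4 for the YAP effect and 0 to 2 for EY against N, and every other comparison gave 0 to 0. In myeloid cells, EY against N, Ccl2 ranged from -0.69 (without EY replicate 1) to 0.47 and was -0.05 without N replicate 1, and Ccl7 ranged from -1.72 to 0.036 (without N replicate 1). By UMIs per cell, 8 members were highest in the monocyte- or macrophage-like class in place of 7 by CPM, and unthinned shares put 5 members higher there than in epithelial cells in all 8 libraries in place of 7. Removal of Scrublet calls was not run. Depth limited Ccl8 in epithelial cells (0 to 26 UMIs per library without YAP) and Ccl2 in T cells (0 to 1).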
